A study of Mus musculus with 2 samples.

Results

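Phagocytes read their surroundings through surface receptors, and the genes described here encode 3 kinds of them: Fc receptors for antibody (Fcgr1, Fcgr2b, Fcgr3, Fcgr4), receptors for microbial or damaged-cell molecules (Cd14, Tlr2, Clec4d, Clec4e), and the scavenger receptor Msr1. They were chosen by name from a list of 10 symbols. Of these, 9 were measured, among 31053 genes in each matrix, and Clec7a was not analysed here. Levels were taken over barcodes with at least 3667 UMIs (unique molecular identifiers, each standing for 1 captured RNA molecule) in the Blank section and at least 4690 in the Col_nHA section. These barcodes are called spots.

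RNA was counted on spatially barcoded arrays in 2 fresh-frozen sections of mouse skull-roof (calvarial) bone, taken 7 days after a bone defect was made. The Blank group had a defect repaired without collagen/nHA material, and the Col_nHA group a defect repaired with it. The labels give no strain, sex, age or genotype and no number of animals behind a section. Each group held 1 section, so there is no replicate check and no p-value, a ratio sets 1 library against the other and not 1 treatment against the other, and section and treatment cannot be told apart. Intervals are exact 95% intervals for counting error only. The 2249 Blank spots had a median depth of 9733 UMIs and the 2471 Col_nHA spots one of 13815 UMIs. They held 30705849 and 40202268 UMIs, and 265 and 215 barcodes lay within 10% of the minimum. A spot can hold several cells of different types, and no image or spot coordinates were used. All 4992 barcodes are shared by both files, as array positions, and 1345 of them were spots in both. Their total UMIs at the same barcode had a Pearson r of 0.182. Spots with over 2% of UMIs from muscle, skin, fat, brain or nerve genes made up 23.9% of the Blank spots and 13.6% of the Col_nHA spots, so the sections did not hold the same mix of tissues.

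Fc receptors bind the constant part of IgG on opsonised targets. The activating receptors signal through the shared gamma chain encoded by Fcer1g, whereas Fcgr2b carries an inhibitory motif in its own tail and restrains them. Cd14 hands lipopolysaccharide and other ligands to Toll-like receptors, Tlr2 senses bacterial lipoproteins, and Clec4d and Clec4e (MCL and Mincle) are C-type lectins that bind mycobacterial glycolipids, Clec4e also a protein released by dead cells. Msr1 takes up modified lipoproteins and cell debris.

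Several of these genes are neighbours, and their promoters are shown because the pairs are set side by side below. In the RefSeq annotation of GRCm38.p6, Fcgr2b (chr1:170960558-170976071), Fcgr4 (chr1:171018926-171029761) and Fcgr3 (chr1:171051169-171065915) follow each other on chromosome 1, with gaps of 42854 and 21407 bases. Clec4d (chr6:123262107-123275268) and Clec4e (chr6:123281789-123289871) lie 6520 bases apart on chromosome 6. Each RefSeq window below, on the same build, is 300 bases long and spans a gene's start, 5′ to 3′ on the gene's strand. The capitals in Fcgr4 mark ACTTCCTC, the reverse complement of GAGGAAGT, a sequence of the kind bound by the myeloid factor PU.1.
Fcgr4, chr1:171018676-171018975, plus strand: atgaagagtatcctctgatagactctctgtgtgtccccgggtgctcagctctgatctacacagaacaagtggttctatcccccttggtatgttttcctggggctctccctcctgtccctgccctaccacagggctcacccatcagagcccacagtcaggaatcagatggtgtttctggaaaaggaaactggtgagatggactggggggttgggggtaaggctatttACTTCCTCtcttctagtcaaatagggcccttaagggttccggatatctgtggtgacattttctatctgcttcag
Fcgr2b, chr1:170976022-170976321, minus strand: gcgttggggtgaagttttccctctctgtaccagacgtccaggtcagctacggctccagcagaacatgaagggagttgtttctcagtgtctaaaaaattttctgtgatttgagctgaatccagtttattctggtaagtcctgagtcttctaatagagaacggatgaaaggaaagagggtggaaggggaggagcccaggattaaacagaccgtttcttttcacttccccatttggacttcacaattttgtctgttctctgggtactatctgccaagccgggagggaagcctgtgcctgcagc
Clec4d, chr6:123261857-123262156, plus strand: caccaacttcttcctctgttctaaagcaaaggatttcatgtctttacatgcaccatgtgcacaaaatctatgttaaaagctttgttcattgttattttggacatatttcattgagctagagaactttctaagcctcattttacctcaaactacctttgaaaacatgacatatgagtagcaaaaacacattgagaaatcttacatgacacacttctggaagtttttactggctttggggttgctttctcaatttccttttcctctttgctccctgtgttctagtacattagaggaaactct
Clec4e, chr6:123289822-123290121, minus strand: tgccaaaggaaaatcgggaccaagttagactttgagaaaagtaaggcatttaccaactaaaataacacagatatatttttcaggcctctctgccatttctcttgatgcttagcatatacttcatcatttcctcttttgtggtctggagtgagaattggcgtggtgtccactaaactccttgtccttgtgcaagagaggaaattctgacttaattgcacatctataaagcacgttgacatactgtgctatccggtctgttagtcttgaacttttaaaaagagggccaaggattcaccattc
Windows were found for 7 of the 9 genes, 8 windows in all, since Fcgr3 has 2, which overlap. On either strand, GAGGAAGT stood in 1 of the 8, that of Fcgr4, 24 bases before the start, and in 3.20% of 32851 windows of all genes. Only this exact form was searched. The shorter GAGGAA, or TTCCTC on the other strand, also stands in the Clec4d and Clec4e windows above. The AP-1 sequence TGAGTCA was in none of the 8 and in 5.20% of all windows, and the C/EBP sequence TTGCGCAA in none of the 8 and in 0.183%. No motif overlapped another. These are matches of letters and say nothing of binding.

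All 9 genes were higher in the Col_nHA section than in the Blank section, and the interval of every ratio lay above 1, as did that of 35.5% of the genes compared, while 30.9% had one below 1. Levels are in CPM, UMIs per 1000000 UMIs of all spots, and are not divided by gene length, so they are compared between sections and not between genes. In all, 9855 genes reached 10 CPM in Blank, in Col_nHA or in both, the 9 receptor genes among them. At least 1.5-fold higher in Col_nHA were 5 of the 9 (Fcgr1, Cd14, Clec4d, Clec4e and Msr1), against 5.13% of the 9855 genes, and none of the 9 was at least 1.5-fold lower, against 7.07%. None reached 2-fold in either direction, where 1.83% of genes were higher and 3.4% lower. The median log2 ratio of the 9 was 0.60, beside 0.02 over all genes, of which 52.1% had a ratio above 1. In a whole section, fewer cells of a type and less RNA per cell cannot be told apart.

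**Figure D1:**
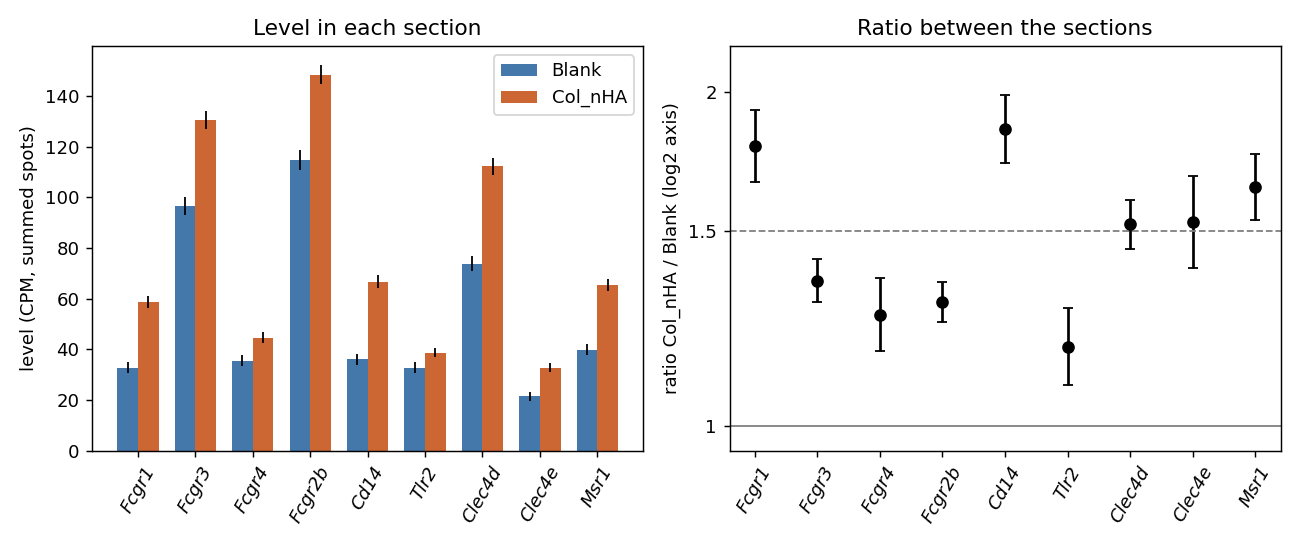
Level of each of the 9 receptor genes in CPM over all spots of the Blank and the Col_nHA section (left, bars from 0) and the Col_nHA over Blank ratio on a log2 axis (right). Error bars are exact 95% counting intervals, with 1 section per group. Every ratio is above 1, from 1.18 for Tlr2 to 1.85 for Cd14.

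Among the Fc receptors, the high-affinity IgG receptor Fcgr1 (chr3:96282909-96293969) differed most. It had 1008 UMIs or 32.8 CPM in Blank and 2358 UMIs or 58.7 CPM in Col_nHA, a ratio of 1.79 (1.66 to 1.93). This is a higher ratio than that of 97.3% of the 9855 genes. The activating low-affinity receptor Fcgr3 had 2962 UMIs (96.5 CPM) in Blank and 5244 UMIs (130.4 CPM) in Col_nHA, a ratio of 1.35 (1.29 to 1.42). Fcgr4, an activating receptor for IgG2 subclasses, was at 35.4 CPM without and 44.6 CPM with the material, a ratio of 1.26 (1.17 to 1.36). The inhibitory Fcgr2b was at 114.7 CPM without and 148.3 CPM with the material, a ratio of 1.29 (1.24 to 1.35). The intervals of Fcgr2b, Fcgr3 and Fcgr4 overlap, and that of Fcgr1 lies above all 3. Fcgr2b, Fcgr3 and Fcgr4 are alike in sequence, and the treatment of reads that fit more than 1 of them was not examined.

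Cd14 (chr18:36725064-36726815) had the highest ratio over all spots, although its interval overlaps that of Fcgr1, which was higher without spots rich in other tissues. It had 1106 UMIs (36.0 CPM) in Blank and 2680 UMIs (66.7 CPM) in Col_nHA, a ratio of 1.85 (1.72 to 1.99). Tlr2 (chr3:83836272-83841824), which can take ligands from Cd14, had the lowest over all spots. As a mean of per-spot CPM, Fcgr4 was lowest, with a log2 ratio of 0.29 against 0.36 for Tlr2. The summed Tlr2 level was 32.8 CPM without and 38.7 CPM with the material, a ratio of 1.18 (1.09 to 1.28), and 79.4% of the 9855 genes had a lower one. The intervals of Cd14 and Tlr2 do not overlap.

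The neighbouring lectins Clec4d and Clec4e had almost the same ratio. Clec4d had 2266 UMIs (73.8 CPM) in Blank and 4510 UMIs (112.2 CPM) in Col_nHA, a ratio of 1.52 (1.45 to 1.60). Clec4e had 657 UMIs (21.4 CPM) and 1313 UMIs (32.7 CPM), a ratio of 1.53 (1.39 to 1.68). A single Blank spot held 50 Clec4e UMIs, 7.61% of all in that section, at 36459 UMIs in total. Without that spot, an alternative added after the data were seen, the Clec4e ratio was 1.65 (1.5 to 1.82). Msr1 (chr8:39543232-39642750) had 1222 UMIs (39.8 CPM) in Blank and 2627 UMIs (65.3 CPM) in Col_nHA, a ratio of 1.64 (1.53 to 1.76). Without the spots rich in other tissues, Clec4d (1.48) and Clec4e (1.43) fell short of 1.5-fold, while Fcgr1 (1.95), Cd14 (1.83) and Msr1 (1.60) stayed past it.

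The receptor genes were also seen in a larger share of Col_nHA spots once depth was set equal. After each spot was thinned to 2000 UMIs, Clec4d had a UMI in 10.8% of Blank and 18.6% of Col_nHA spots. The shares were 6.40% and 11% for Fcgr1, 7.38% and 12.5% for Cd14, and 3.87% and 6.64% for Clec4e. Shares were higher in Col_nHA for all 9 genes, and the smallest differences were those of Fcgr4 (6.67% and 8.22%) and Tlr2 (6.14% and 7.73%). For both genes the intervals of the sections overlapped. They were 5.67 to 7.78 in Blank and 7.16 to 9.37 in Col_nHA for Fcgr4, and 5.18 to 7.21 and 6.71 to 8.85 for Tlr2. Unthinned, Clec4d was found in 40.1% of Blank and 61.3% of Col_nHA spots. Counts per spot were low: the highest in a single spot were 17 UMIs in Blank and 42 in Col_nHA for Fcgr3, and 12 and 10 for Tlr2. Spots with at least 5 UMIs made up 1.42% of Blank and 3.80% of Col_nHA spots for Msr1, and 0.711% and 4.78% for Cd14, without thinning. Spots with UMIs of at least 3 of the 9 genes made up 6.49% (5.51 to 7.59) of Blank and 14.0% (12.7 to 15.5) of Col_nHA spots at equal depth, and 43.5% and 33.5% of spots held none.

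A UMI in a spot is not by itself a sign that the gene was expressed there. At 500 UMIs, barcodes under the UMI minimum, whose median was 1248 UMIs in Blank and 1760 in Col_nHA, gave intervals that overlapped those of the spots for all 9 genes in both sections. The share was nonetheless higher in the spots for all 9 genes in Blank and for 6 of the 9 in Col_nHA. For Col_nHA Msr1 it was lower, at 3.16% of spots and 3.81% of those barcodes, and for Col_nHA Fcgr2b higher, at 8.22% and 6.34%. The region with the fewest receptor UMIs in each section still gave shares of 0% to 5.41% in Blank (74 spots, led by Ttr, a choroid plexus gene) and 0.391% to 5.47% in Col_nHA (256 spots, led by the muscle gene Myh4) at 2000 UMIs. In 74 spots, a count of 0 has an upper exact limit of 4.86%. Shares by spot are therefore read between sections and not as counts of expressing spots.

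Within each section, the 9 genes followed the regions. Spots of both sections were clustered together without the 9 genes and without the lists of Fc receptor partners, Toll-like receptor, lectin and scavenger genes, which left out 84 genes in all. This gave 17 regions, of which 9 held at least 50 Blank spots and 10 at least 50 Col_nHA spots. Only regions 5 and 6 held at least 50 spots of both. The order below describes levels and carries no test, since genes that vary with the receptors took part in the clustering.

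In the Blank section, region 4 (233 spots, led by Acod1 and Cxcl2, genes of activated myeloid cells, and by Clec4e itself) had the highest summed level, 1090 CPM over the 9 genes, and region 8 the lowest, 99.8 CPM. Region 4 was highest for 8 of the 9 genes. Clec4e was the most concentrated: it stood at 129 CPM (117 to 143) in region 4 and at 18.1 CPM (14.5 to 22.4) in region 7, the next. Region 4 held 58.4% of all Blank Clec4e UMIs. The single spot with 50 Clec4e UMIs lay in region 4, which held 384 in all. Clec4d was at 201 CPM (185 to 218) there and at 85.7 CPM (79.7 to 91.9) in region 0, led by the tendon gene Tnmd. Cd14 was at 112 CPM (99.98 to 124) in region 4 and at 43.1 CPM (37.4 to 49.5) in region 7. The scavenger receptor Msr1 was at 97.2 CPM (86.3 to 109) in region 4 and at 47.4 CPM (41.3 to 54.0) in region 7. Tlr2 was at 66.3 CPM (57.3 to 76.2) and at 37.6 CPM (32.2 to 43.5) in the same 2 regions. For Fcgr3 and Fcgr2b the step was smaller, from 167 CPM (153 to 183) to 117 CPM (107 to 127) and from 189 CPM (174 to 205) to 158 CPM (147 to 170). Below the top, neighbours in the order often overlapped: of the 8 neighbouring pairs, 5 (Fcgr3, Fcgr2b) to 7 (Fcgr1, Cd14, Tlr2, Clec4e, Msr1) did. Fcgr4 was the exception to the lead of region 4. It was highest in region 2, led by the muscle genes Sln and Myh2, at 81.1 CPM (69.6 to 93.9), against 59.5 CPM (51.1 to 69.0) in region 4. The Fcgr1 intervals of regions 4 and 2 overlapped, at 69.0 CPM (59.8 to 79.1) and 60.1 CPM (50.3 to 71.3).

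In the Col_nHA section, the highest levels were those of regions 14 and 13, which held 2 and 1 of the Blank spots. Region 14 (273 spots, led by Npy, Spp1 and F7) summed to 1370 CPM and region 13 (213 spots, led by the interferon-induced Cxcl10, and by Ly6c2 and Ms4a4c) to 1340 CPM, against 74.1 CPM in region 9. Region 13 was highest for Fcgr1, at 156 CPM (143 to 171) against 121 CPM (111 to 131) in region 14. It was highest also for Fcgr4, at 137 CPM (124 to 151) against 84.4 CPM (76.5 to 92.9), and for Fcgr2b, at 282 CPM (264 to 301) against 227 CPM (214 to 240). Region 14 was highest for Cd14, at 144 CPM (134 to 155), and for Clec4d, at 260 CPM (246 to 275), with region 15 next in both. Between the 2 highest regions of a gene, intervals overlapped for Fcgr3, Tlr2, Clec4e and Msr1. Fcgr3 was at 271 CPM (257 to 286) in region 14 and 262 CPM (244 to 280) in region 13, and Msr1 at 124 CPM (115 to 135) and 125 CPM (113 to 138). Clec4e was at 78.2 CPM (70.6 to 86.3) in region 14, below its level in Blank region 4. Over the 9 neighbouring pairs of the order, intervals overlapped in 4 (Fcgr1, Fcgr3, Fcgr2b, Clec4d) to 8 (Tlr2). Region 9 was lowest for all 9 genes, and Clec4d spanned the widest range, 39.2-fold from region 9 to region 14. Thus the 3 Fc receptors Fcgr1, Fcgr4 and Fcgr2b were highest in one region, and Cd14 and Clec4d in the other.

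**Figure D2:**
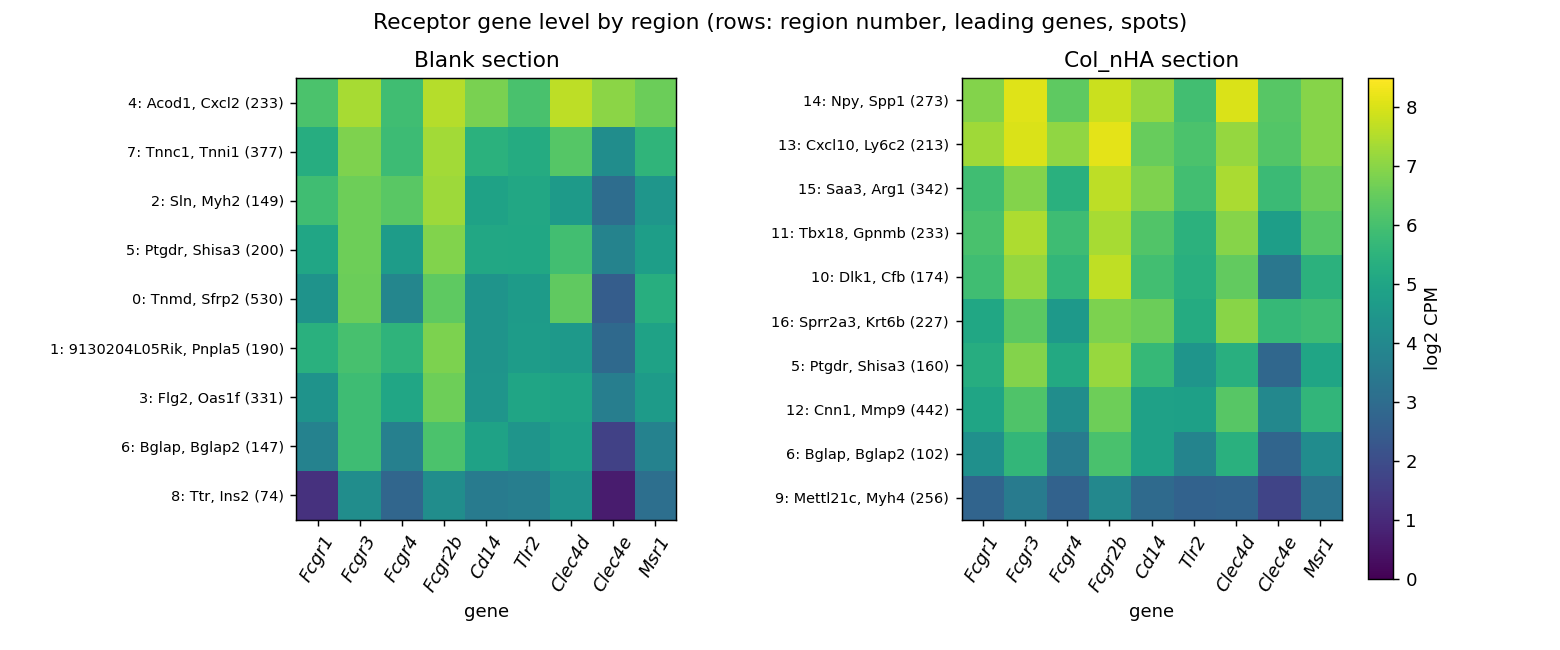
Level (log2 CPM, colour) of the 9 receptor genes in each region with at least 50 spots, for the Blank and the Col_nHA section. Row labels give the region number, leading genes and spots. Region 4 has the highest summed level in Blank (1090 CPM), and regions 14 and 13 in Col_nHA (1370 and 1340 CPM).

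The summed level of the 9 genes went with the share of UMIs from a macrophage list that holds none of them. Spearman rho was 0.82 over the 9 Blank regions and 0.93 over the 10 Col_nHA regions, as a description, since regions share a library. By gene, rho with the macrophage share ran from 0.42 (Fcgr4) to 0.93 (Clec4d) in Blank and from 0.68 (Cd14) to 0.99 (Fcgr3) in Col_nHA. Blank Cd14 had a higher rho with the neutrophil list, 0.73, than with the macrophage list, 0.63. Against the median UMIs per spot, rho of the summed level was 0.25 and -0.14. The list made up 1.08% of UMIs in Blank region 4, and in Col_nHA 1.83% in region 14 and 1.62% in region 13. The 10% of spots with the highest macrophage share held 13.5% of all UMIs in Blank and 14.2% in Col_nHA. It held 22.4% (Fcgr2b) to 43.5% (Clec4e) of receptor UMIs in Blank and 25.8% (Tlr2) to 37.4% (Fcgr4) in Col_nHA. Fcgr3, for example, was at 178 CPM in those spots and 23.2 CPM in the lowest 10% of Blank, and at 330 CPM and 13.8 CPM in Col_nHA. Across single spots, rho between 2 receptor genes lay between -0.04 and 0.13 in Blank and between 0.01 and 0.12 in Col_nHA, which at these counts is no finding.

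The macrophage list itself made up 0.659% of UMIs in Blank and 0.883% in Col_nHA, and 9 of its 10 genes passed 10 CPM, all with a ratio above 1. Lyz2 gave 63.3% and 69.1% of the list's UMIs. Per 1000 UMIs of this list, Cd14 was 1.38 times as high in Col_nHA as in Blank (1.29 to 1.48), Fcgr1 1.33 times (1.24 to 1.44) and Msr1 1.23 times (1.15 to 1.31). Fcgr3 (ratio 1.01, 0.965 to 1.06), Fcgr2b (0.965, 0.926 to 1.01) and Fcgr4 (0.940, 0.871 to 1.02) had intervals that include 1, and Tlr2 was lower (0.880, 0.812 to 0.953). Set against the list without Lyz2, an alternative added after the data were seen, the ratios ran from 1.05 (0.965 to 1.13) for Tlr2 to 1.64 (1.53 to 1.76) for Cd14, and those of Fcgr3 (1.20, 1.15 to 1.26), Fcgr2b (1.15, 1.10 to 1.20) and Fcgr4 (1.12, 1.04 to 1.21) had intervals above 1. Lyz2 thus moved the values, while Cd14 was highest and Tlr2 lowest with either.

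Other cells that carry these receptors were looked at by their markers. The neutrophil list summed to 241 CPM without and 327 CPM with the material, and 3 of its 9 genes passed 10 CPM. These were S100a8, S100a9 and Csf3r, while Ly6g, which defines mouse neutrophils, was at 0.0977 CPM and 0.224 CPM. Of the low members, Cxcr2 was higher in Col_nHA (1.85, 1.38 to 2.51), and Retnlg (0.216, 0.143 to 0.319), Ngp (0.488, 0.389 to 0.611), Camp (0.725, 0.597 to 0.881) and Ltf (0.691, 0.509 to 0.936) were lower, so the list did not move one way. The osteoclast list summed to 1395 and 2445 CPM and the lipid-associated macrophage list to 4947 and 14469 CPM. All 8 genes of the latter had a ratio above 1, but Spp1 alone was at 1481 and 8498 CPM. The dendritic cell list summed to 31.5 and 22.3 CPM. Only 2 of its genes passed 10 CPM, and they moved opposite ways. Cd209a was at 11.7 and 2.49 CPM, and Ccr7 had a ratio of 1.41 (1.20 to 1.67). The monocyte list summed to 428 and 324 CPM, with Hp at 197 and 53.2 CPM, but 3 of its 6 genes were higher in Col_nHA, Chil3 (3.65, 3.27 to 4.08), Ly6c2 (1.64, 1.51 to 1.79) and Plac8 (1.20, 1.13 to 1.28). The B and plasma cell list, which marks cells that use Fcgr2b, summed to 7.00 and 4.60 CPM, and the mast cell list to 128 and 13.5 CPM. No marker in these lists was at 0 in either section. Their part in the receptor levels was not tested.

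Ratios were also taken among spots of like macrophage share, after all spots were ranked on it and cut into 4 bins of equal size, a split added after the data were seen. Bin 1, the lowest, held 559 Blank and 621 Col_nHA spots, and bin 4 held 376 and 804. The outer bins were still unequal inside, with a macrophage share of 0.234% in Blank and 0.201% in Col_nHA in bin 1, and of 1.20% and 1.69% in bin 4. The bins were also not matched for tissue, and the sections did not hold the same mix. Col_nHA region 9, led by the muscle gene Myh4, had a macrophage share of 0.107% and Fcgr4 at 6.36 CPM. The part of either in the ratios was not tested. In bin 4, Fcgr1 was at 48.4 CPM without and 106 CPM with the material, a ratio of 2.19 (1.94 to 2.47), and in bin 1 the ratio was 0.973 (0.767 to 1.24). Fcgr4 went from 0.473 (0.366 to 0.611) in bin 1 to 1.61 (1.43 to 1.82) in bin 4, so it was lower in Col_nHA where macrophage genes were low. Both lectins had higher ratios in bins 1 and 2 than in bins 3 and 4. Clec4e had a ratio of 2.08 (1.45 to 3.04) in bin 1 and 1.09 (0.965 to 1.24) in bin 4, and Clec4d 1.76 (1.45 to 2.13) and 1.24 (1.15 to 1.33). Fcgr3 had a ratio of 0.820 (0.703 to 0.959) in bin 1 and 1.5 (1.40 to 1.61) in bin 4, and Fcgr2b 0.932 (0.821 to 1.06) and 1.37 (1.28 to 1.46). Tlr2 passed 1 with its interval in bin 4 alone, at 1.18 (1.04 to 1.34). The intervals of Cd14, Msr1 and Clec4d lay above 1 in all 4 bins, with Cd14 at 1.29, 1.71, 1.46 and 1.97. The difference between bins was not tested.

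**Figure D3:**
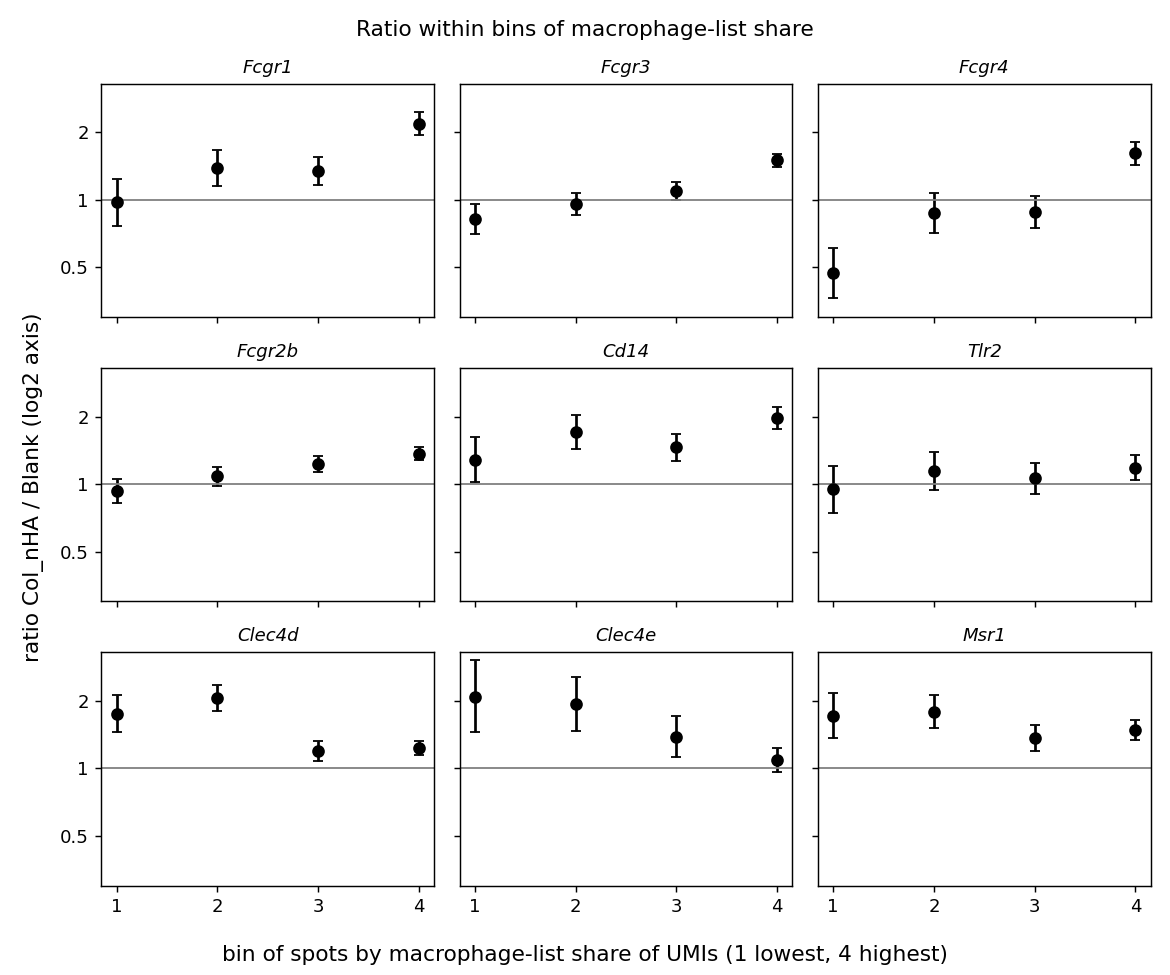
Ratio Col_nHA over Blank (log2 axis) of each receptor gene within bins of spots by macrophage-list share of UMIs, 1 the lowest and 4 the highest. Bars are exact 95% counting intervals. The Fcgr4 ratio runs from 0.473 in bin 1 to 1.61 in bin 4, and that of Clec4e from 2.08 to 1.09.

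Regions 5 and 6, held by both sections, allow a comparison within a region. In region 5 (200 Blank and 160 Col_nHA spots, led by Ptgdr, Shisa3 and Penk), Cd14 had a ratio of 1.5 (1.17 to 1.92), Fcgr3 of 1.24 (1.06 to 1.44) and Fcgr2b of 1.25 (1.09 to 1.43). There Clec4d (0.675, 0.534 to 0.851), Clec4e (0.518, 0.292 to 0.887) and Tlr2 (0.651, 0.468 to 0.895) were lower in Col_nHA, against their direction over whole sections. The neutrophil list made up 0.0349% of UMIs in Blank and 0.0106% in Col_nHA there, and the macrophage list 0.596% and 0.621%. In region 6 (147 and 102 spots, led by the osteocalcin gene Bglap), Clec4d had a ratio of 1.53 (1.04 to 2.25), and the intervals of the other 8 genes included 1. The neutrophil list was at 0.0265% and 0.0901% there, and the macrophage list at 0.414% and 0.377%. In these 2 regions, Clec4d was thus lower in Col_nHA where the share of the neutrophil list was lower and higher where it was higher. Over whole sections, S100a8 (96.2 and 164 CPM) and S100a9 (102 and 122 CPM) were the most abundant genes of that list. Its share was highest in Col_nHA region 16, at 0.141%, a region led by Sprr2a3 and Krt6b. The part of that share in the Clec4d ratios was not tested.

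The balance of the inhibitory Fcgr2b and the activating Fcgr3 and Fcgr4 differed little between sections and more between regions. Fcgr2b gave 3521 of the 7571 UMIs of Fcgr2b, Fcgr3 and Fcgr4 in Blank, or 46.5% (45.4 to 47.6), and 5961 of 12999 in Col_nHA, or 45.9% (45.0 to 46.7). The intervals overlap. Among Col_nHA regions the share was lowest in region 14, at 38.9% (37.1 to 40.7), and highest in region 15 (342 spots, led by Saa3, Arg1 and Cxcl5), at 55.1% (52.2 to 58.1). In Blank it ran from 41.8% (28.7 to 55.9) in region 8 to 52.4% (47.8 to 57.0) in region 3. These 2 intervals overlap, and region 8 held only 55 UMIs of the 3 genes. The interval of Blank region 0, at 43.3% (41.0 to 45.6), lay below that of region 3. The activating receptors Fcgr1, Fcgr3 and Fcgr4 together had 514 UMIs per 1000 UMIs of Fcer1g, their signalling partner, in Blank and 569 in Col_nHA, a ratio of 1.11 (1.07 to 1.15). The 3 did not move alike. Over all spots, Fcer1g had a ratio of 1.28 (1.25 to 1.31), beside 1.79 for Fcgr1, 1.35 for Fcgr3 and 1.26 for Fcgr4.

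**Figure D4:**
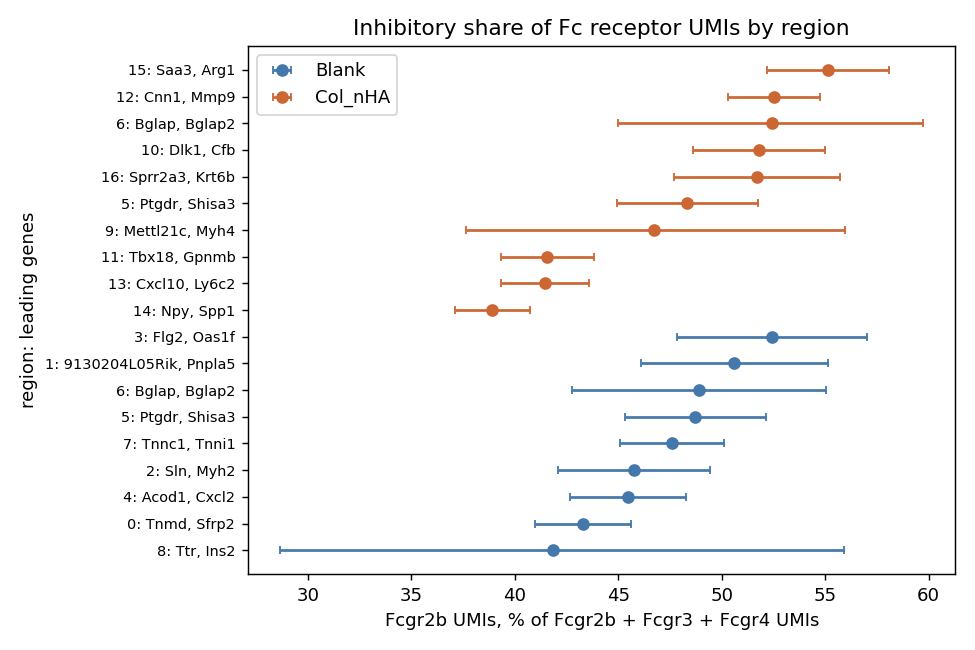
Fcgr2b UMIs as a percent of Fcgr2b, Fcgr3 and Fcgr4 UMIs in each region with at least 50 spots of a section. Points are regions and bars exact 95% Clopper-Pearson intervals. In Col_nHA the share runs from 38.9% in region 14 to 55.1% in region 15.

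Genes whose pattern over spots was most like that of a receptor gene were sought among 9036 genes, by the mean over both sections of Pearson r of log-scaled counts across 2249 and 2471 spots. Spots of a section share a library and depth, so r is a description. Clec4d went with Lyz2 (0.450), Ftl1 and Spp1, and Fcgr3 with Lyz2 (0.433), Ctsb and Ctss. Clec4e went with Il1rn (0.448), Cxcl2 and Spp1. Fcgr4 went with Ifi27l2a (0.330), B2m and H2-K1, and Fcgr1 with H2-D1 (0.319), Ifi27l2a and Cd52. Fcgr2b went with Ctsb (0.363), H2-D1 and C1qb, Cd14 with Spp1 (0.364), Srgn and Ctss, and Msr1 with Lyz2 (0.331), Spp1 and Psap. Tlr2 went with Psap (0.235), Lyz2 and Srgn, and its highest r was the lowest of the 9.

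The other genes of these pathways are given by list, and those that reached 10 CPM in either section are called measured. Of 17 Fc receptor partners 12 were measured, with a median log2 ratio of 0.32. Of these, 2 were at least 1.5-fold higher and none lower, against 5.13% higher and 7.07% lower over all genes compared. The adaptor Tyrobp was at 430 CPM without and 781 CPM with the material (ratio 1.82, 1.78 to 1.85) and the adaptor Lat2 at 37.2 and 77.5 CPM (2.09, 1.95 to 2.23). Fcer1g had a ratio of 1.28 (1.25 to 1.31). Antibody transcripts were scarce. Of 11 immunoglobulin constant genes only Ighm was measured, at 30.7 CPM without and 16.2 CPM with the material, while Igkc was at 5.31 and 1.69 CPM. Ighg1, Ighg2c, Ighg3 and Ighe had no UMI in the spots of either section. A count of 0 does not exclude a low level: 3 UMIs, used as a floor, would be 0.0977 CPM in Blank and 0.0746 CPM in Col_nHA. Antibody protein was not measured.

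Of 24 Toll-like receptor pathway genes 17 were measured, with a median log2 ratio of 0.12 (-0.067 with a minimum of 50 CPM), and 1 was at least 1.5-fold higher and 1 lower. These counts are near the shares over all genes compared, 5.13% higher and 7.07% lower. Irak2, a kinase of the signalling complex, had a ratio of 1.76 (1.55 to 1.99), and Lbp, which brings lipopolysaccharide to Cd14, was at 97.6 CPM without and 50.4 CPM with the material (0.517, 0.488 to 0.547). The most abundant were Cd36, a lipid receptor, at 1.12 (1.08 to 1.16), and Unc93b1, which carries endosomal receptors, at 0.954 (0.915 to 0.995). Of 17 lectin receptor and signalling genes 13 were measured, with a median of 0.18 (-0.081 with a minimum of 5 CPM), and 2 were at least 1.5-fold higher and 2 lower. The galactose-binding lectins Clec10a (0.291, 0.263 to 0.321) and Mgl2 (0.377, 0.319 to 0.444) were lower, and Clec4n (dectin-2) was at 1.30 (1.25 to 1.36) and the mannose receptor Mrc1 at 0.801 (0.769 to 0.835). Clec4d and Clec4e thus lay on the other side of 1 from Clec10a and Mgl2. Of 19 other scavenger and phagocytic receptors 12 were measured, with a median of -0.18, and 3 were at least 1.5-fold higher and 1 lower. The integrin chain Itgax had a ratio of 2.57 (2.39 to 2.77), and Scara5, a ferritin receptor, of 0.245 (0.220 to 0.272). Lrp1 was at 1.04 (1.02 to 1.06) and Stab1 at 0.881 (0.853 to 0.911).

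Downstream, 11 of 18 NF-kB and AP-1 target genes were measured, with a median log2 ratio of 0.55 (0.14 with a minimum of 50 CPM), and 5 were at least 1.5-fold higher and none lower. The shares over all genes compared were 5.13% higher and 7.07% lower. The chemokine gene Ccl3 had a ratio of 2.08 (1.83 to 2.38) and Ptgs2, which encodes cyclooxygenase 2, of 1.98 (1.72 to 2.29), while Nfkbia was at 1.01 (0.959 to 1.07) and Sod2 at 1.21 (1.14 to 1.27). Of 15 genes for endogenous ligands all were measured, with a median of 0.37, and 3 were at least 1.5-fold higher and none lower. Saa3, an acute-phase protein that can act through Tlr2, was at 74.8 CPM without and 165 CPM with it (2.21, 2.10 to 2.32), and S100a8 at 96.2 and 164 CPM (1.70, 1.63 to 1.78). Collagen gene Col1a1 had a ratio of 0.670 (0.668 to 0.672) and fibronectin gene Fn1 of 0.940 (0.933 to 0.947).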

How the data were processed

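The authors deposited raw UMI counts per gene and barcode, 1 matrix per section, with 4992 barcodes and no tissue filter. Per the submitters' processing notes, Space Ranger and mm10 were used, and the matrix headers name Cell Ranger 4. Per the labels, sections were fresh-frozen for spatial sequencing, although the extraction text describes a droplet single-cell kit. Deposited counts were summed over spots and scaled to CPM. Ratios have exact conditional binomial intervals, levels exact Poisson and shares exact Clopper-Pearson intervals, at 95%. Thinning was to 2000 UMIs, without replacement. Regions came from Leiden clustering (resolution 0.6, 15 neighbours, 30 components of 2000 variable genes, scaling to 10000 and log), without integration, and no doublet caller was run on spots. Region leading genes are the 3 with the highest fold among genes of at least 50 CPM. The text names all members, the 3 genes most like each, and of each pathway list the 2 most abundant and the 2 with the largest log2 ratio. Region leading genes, neutrophil, monocyte and dendritic cell markers, Lyz2 and Spp1 are named beside these. The 4 immunoglobulin genes at 0 and the dendritic cell markers were named after their values were seen. The members and lists were chosen with earlier results of these data known. Calculations were tested on simulated data. Clustering used scanpy 1.11.5, igraph 0.11.9 and scikit-learn 1.9.0 in Python 3.11.15, intervals scipy 1.17.1, tables pandas 2.3.3 and numpy 2.4.6, figures matplotlib 3.10.9, and TMM factors edgeR 4.0.16 (R 4.3.3). Alternatives were other UMI minimums, scalings, CPM minimums, thinning depths and resolutions, the mean over spots, and leaving out spots rich in other tissues. Beside the list with and without Lyz2, levels against 1 smaller set of macrophage genes are not reported here.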

Additional observations from a re-analysis of the deposited data

Results flagged for a closer look

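The difference between sections also appeared in barcodes under the UMI minimum, which the comparisons above do not use. Their ratio of Col_nHA over Blank was 2.02 for Fcgr1, 1.47 for Fcgr3, 1.74 for Fcgr4, 1.27 for Fcgr2b, 2.25 for Cd14, 1.87 for Tlr2, 1.62 for Clec4d, 1.77 for Clec4e and 2.29 for Msr1. Every interval lay above 1, as did that of 22.6% of the 9855 genes compared above. The median log2 ratio was 0.82 for the 9 genes and 0.04 over all. These barcodes hold RNA from the same library, so they are no replicate.

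Among the bins, the interval of the ratio lay below 1 in one and above 1 in another for Fcgr3 and Fcgr4, and between regions 5 and 6 for Clec4d. Bins are those of the macrophage share, 1 the lowest and 4 the highest. For Fcgr3 it was 0.820 in bin 1 and 1.5 in bin 4. For Fcgr4 it was 0.473 in bin 1 and 1.61 in bin 4. For Clec4d it was 0.675 in region 5 and 1.53 in region 6. Clec4e and Tlr2, which had intervals below 1 in region 5 (0.518 and 0.651), had ones above 1 in bin 1 (2.08) and in bin 4 (1.18). These differences were not tested.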

How the results depend on the processing

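With 1 section per group, no section could be left out, and the counting intervals do not include the spread between animals. No paired analysis was possible because each group holds 1 library and no result comes from a test. The log2 ratio of each of the 9 genes kept its sign under all 8 settings for spots, scaling and summary tried. Their median, 0.60, was 0.83 as a mean of per-spot CPM. With 5 CPM, 50 CPM or no minimum, the count of genes at least 1.5-fold lower went from 697 to 1046, 204 and 3500, and that of genes at least 2-fold lower from 335 to 520, 96 and 2190. With 50 CPM or no minimum, genes at least 1.5-fold higher went from 506 to 204 and 1905, and those at least 2-fold higher from 180 to 72 and 894. Median log2 ratios of lists moved with the CPM minimum: immunoglobulins from -0.92 to -1.28 at 5 CPM (no value at 50 CPM), lectins from 0.18 to -0.081 at 5 CPM, and at 50 CPM the Toll-like list from 0.12 to -0.067, NF-kB targets from 0.55 to 0.14 and ligands from 0.37 to 0.38. Without spots rich in other tissues, immunoglobulins were at -1.10 and ligands at 0.21. Thinning to 500 UMIs, or not at all, moved the median share of spots with a UMI from 7.16% to 1.82% and 29.9% in Blank and from 11.8% to 3.16% and 49.0% in Col_nHA. Spots with at least 3 of the genes went from 6.49% to 0.133% and 56.1%, and from 14.0% to 1.05% and 77.0%. At resolutions 0.3 and 1.0, which gave 9 and 22 regions, the highest summed level was 1481 and 1433 CPM in Blank and 1055 and 1667 CPM in Col_nHA. The median log2 ratio per macrophage UMI, 0.18, was 0.43 without Lyz2, added after the data were seen. The cause of these shifts was not tested beyond what the settings change by construction.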
